A study of Macaca mulatta with 5 samples.

Results

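IGFBP7 (insulin-like growth factor binding protein 7) was examined in strand-specific poly(A)-positive RNA-Seq libraries of 5 rhesus macaque tissues: cerebellum, kidney, lung, heart and spleen. The gene was found by its identifier, ENSMMUG00000014011, which was carried by 1 of the 51763 transcripts, that is 1 of 28633 genes with an identifier. The gene was chosen by its RPKM in these same libraries, low in cerebellum and high in kidney and spleen, so the levels and folds below describe the gene and test nothing. All 5 samples are labelled as male and none has a stated treatment, strain or age. The study describes cerebellum, kidney, lung and heart as tissues of the same animal, and the animal behind spleen is not given in the sources used here. Each tissue had 1 library, so differences between tissues could not be set against any replicate spread, and all intervals cover the counting of reads only.

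IGFBP7 is a secreted glycoprotein of the extracellular matrix and of the basement membrane of blood vessels. It shares the cysteine-rich amino-terminal domain of the classical IGF binding proteins, which hold insulin-like growth factors away from their receptors, but it binds these ligands weakly. Its transcript is also a known substrate of the ADAR enzymes, which turn adenosine into inosine in double-stranded RNA, and inosine is read as guanosine in sequencing. A pair of adenosines in its coding region are known recoding sites, and editing at 1 of them replaces a lysine by an arginine close to the place where the protein is cleaved. The processed files give reads per transcript and not the bases at single positions, so the editing level of these sites was not analysed here, and what follows is the expression of the RNA on which they lie.

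The libraries had between 48306898 and 81517974 properly mapped reads. Of the tissue markers that could be matched, 6 of 7 for cerebellum, 7 of 7 for kidney, 7 of 7 for lung, 5 of 5 for heart and 6 of 6 for spleen were highest in the tissue they mark. The exception was CALB1, a calcium-binding protein of Purkinje cells and of the distal tubule, with 108 RPKM (reads per kilobase of exon per 1000000 properly mapped reads) in cerebellum and 488 in kidney. Reads of some markers were also counted in another tissue. None of the 7 kidney markers was at 0 reads in spleen, and none of the 7 cerebellum markers in heart. NPHS1, a kidney marker, had 919 reads (6.12 RPKM) in kidney and 165 (0.79) in spleen. CBLN1, a synaptic organizer made by cerebellar granule cells, had 23319 reads in cerebellum, 72 in heart, 6 in spleen and 0 in kidney and lung. UMOD, the uromodulin of the kidney tubule, had 126094 reads in kidney, 200 in spleen and 0 in the other 3 tissues. This gave CBLN1 0.81 RPKM in heart against 204 in cerebellum, and UMOD 1.24 RPKM in spleen against 1086 in kidney. Where these reads came from was not tested.

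The only IGFBP7 transcript, IMMRT10011012293, lies on chromosome 5 of rheMac2 from 72269324 to 72353795, a span of 84472 bp. Its exon length is 5155 bp, longer than that of 94.9% of the genes, whose median was 1104 bp. The files give neither exon coordinates nor strand, so which part of the span is exonic or untranslated is not known from them. Since RPKM divides by the exon length, the absolute level rests on this length. The length was the same in every file, so it cancels in the ratio between tissues. Which reads were counted still rests on the gene model, in the ratios as well.

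IGFBP7 was most abundant in kidney and least abundant in cerebellum. In kidney 6099 reads gave 24.5 RPKM (95% exact Poisson interval 23.9 to 25.1). Spleen had 7262 reads and 21.0 RPKM (20.5 to 21.5). Lung had 5637 reads and 14.1 RPKM (13.7 to 14.4). These 3 tissues together held most of the signal, and heart and cerebellum were lower. Heart had 2136 reads and 6.54 RPKM (6.27 to 6.83). Cerebellum had 558 reads and 1.33 RPKM (1.22 to 1.44), which is well above the 0.0071 RPKM that 3 reads would give there. Of the RPKM summed over the 5 tissues, kidney held 36.3%, spleen 31.1%, lung 20.9%, heart 9.7% and cerebellum 2.0%. None of the 5 counting intervals overlapped another on the deposited scale. In bulk tissue, fewer cells that make a transcript and less of it per cell cannot be told apart.

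**Figure D1:**
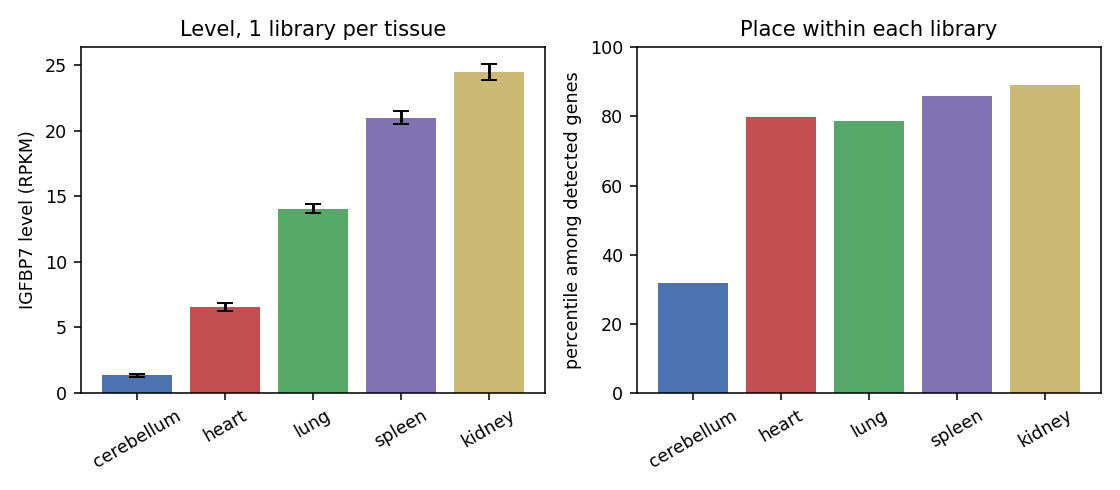
Left, level of IGFBP7 in RPKM in each tissue, 1 library per tissue, with bars starting at 0 and error bars giving the 95% exact Poisson interval of the reads. Right, percentile of IGFBP7 among the 15688 genes with at least 1 RPKM in some tissue, within each library. The level runs from 1.33 RPKM in cerebellum to 24.5 in kidney, and the percentile from 31.7 to 89.1, with heart and lung close to each other.

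Each step of this order was larger than the counting error. The level in kidney was 1.17 times that in spleen (95% exact binomial interval 1.13 to 1.21). Spleen was 1.49 times lung (1.44 to 1.55), and lung was 2.15 times heart (2.04 to 2.26). The widest gap between neighbours was that of heart and cerebellum, with a ratio of 4.93 (4.49 to 5.42). Against cerebellum the ratio was 18.4 in kidney (16.9 to 20.2), 15.8 in spleen (14.5 to 17.3) and 10.6 in lung (9.70 to 11.6). The spread between animals or between libraries of the same tissue cannot be read from these data.

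The scaling of the libraries decided 1 of these steps. Cerebellum, kidney, lung and spleen had 71.3%, 80.0%, 91.5% and 86.2% as many reads on transcripts as properly mapped reads, whereas heart had 47.9%. The reads on transcripts are sums over all transcripts, so a read on several transcripts of a gene may be counted more than once. Scaled by the upper quartile, heart had 12.4 RPKM and lung 12.0, and with TMM (trimmed mean of M values) heart had 13.8 and lung 11.3. Heart was above lung under 4 of 5 alternative scalings, so heart and lung have no settled order. Kidney stayed the highest, spleen came after it and cerebellum stayed the lowest under all 5. The kidney to cerebellum ratio lay between 15.5 and 17.1 under the 5 scalings.

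**Figure D2:**
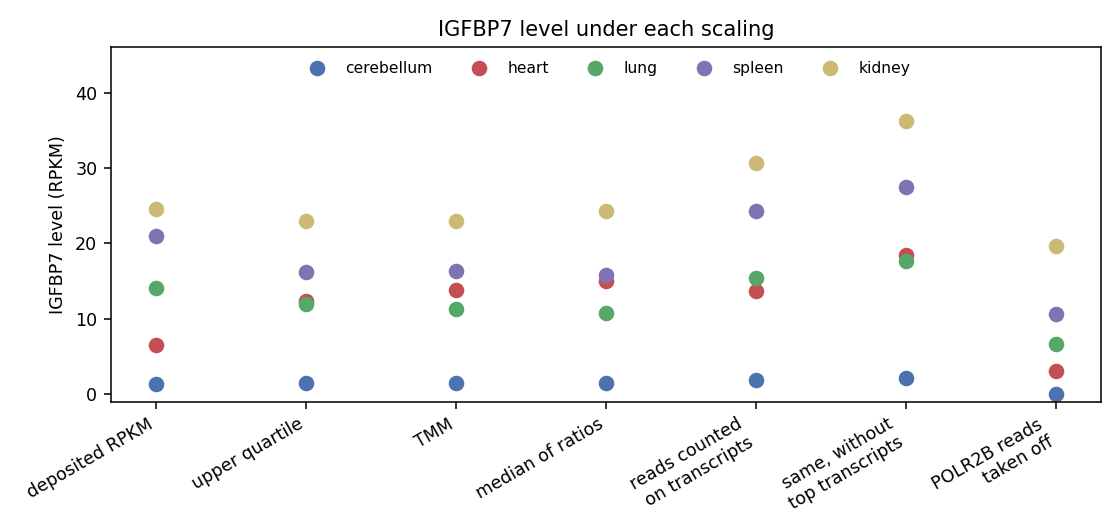
Level of IGFBP7 in RPKM (vertical axis) in each tissue under the deposited scale, 5 alternative scalings and a setting in which every read counted on the overlapping gene POLR2B is taken off, with 1 point per tissue. Kidney is the highest and cerebellum the lowest point in every column, and heart lies above lung in 4 of the 5 alternative scalings. The scalings to reads on transcripts divide by fewer reads without rescaling, so their points sit higher by construction.

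The place of IGFBP7 within a library does not depend on the scaling between libraries. Among the 15688 genes that reached 1 RPKM in some tissue, IGFBP7 ranked 1704 from the top in kidney (percentile 89.1), 2210 in spleen (85.9), 3146 in heart (79.9) and 3331 in lung (78.8). In cerebellum it ranked 10719 (percentile 31.7), below the median gene, which had 3.32 RPKM there. In heart, where the median gene had 1.57 RPKM, 6.54 RPKM of IGFBP7 gave a percentile close to that of 14.1 RPKM in lung. The median detected gene also differed from cerebellum, by 0.31 on the log2 scale in kidney, 0.56 in lung, 0.59 in spleen and -0.89 in heart. Relative to this shift, the log2 difference of IGFBP7 from cerebellum was 3.90 in kidney, 3.40 in spleen, 3.19 in heart and 2.85 in lung. A ratio to cerebellum as high as that of IGFBP7 or higher was found for 6.95% of the detected genes in kidney, 7.20% in heart, 10.02% in spleen and 14.6% in lung. Cerebellum was the lowest tissue for 23.9% of the detected genes and kidney the highest for 18.7%.

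The depth over the RNA sets how many reads can cover a single base, such as a recoding site. Per 100 bases of exon, IGFBP7 had 10.8 reads in cerebellum, 41.4 in heart, 109 in lung, 118 in kidney and 141 in spleen. Lung was close to kidney here although its RPKM was lower, as its library had 77785104 properly mapped reads against 48306898 in kidney. These are means over the 5155 bp of the model, and coverage at single positions was not analysed here.

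The end of the IGFBP7 span overlaps another gene. POLR2B, which encodes the second largest subunit of RNA polymerase II, runs from 72349734 to 72399162 on chromosome 5 of rheMac2, and 4062 bp of it lie within the IGFBP7 span. The spans of these genes also overlap in the RefSeq annotation of another assembly, T2T-MMU8v2.0. The libraries keep the strand, but whether the counting used it is not stated, and without strand the reads of overlapping exons cannot be told apart. POLR2B had 3598 reads in spleen, 2989 in cerebellum, 2972 in lung, 1202 in kidney and 1134 in heart. Cerebellum was the only tissue in which IGFBP7 had fewer reads than POLR2B, 0.187 times as many, against 5.07 times in kidney and between 1.88 and 2.02 times in the other 3 tissues. The 558 reads of cerebellum could therefore all have come from POLR2B, and how many did was not tested.

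As a strict setting, every read counted on POLR2B was taken off IGFBP7. This is a lower bound only if reads of both genes were counted on both, which is not known. It left 19.7 RPKM in kidney, 10.6 in spleen, 6.65 in lung, 3.07 in heart and 0 in cerebellum. The order of the tissues was that of the deposited levels. The value left in heart was 2.31 times the full deposited level of cerebellum.

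A short transcript, ENSMMUG00000035703, lies wholly inside the IGFBP7 span, with an exon length of 129 bp. It had 37 reads in spleen, 32 in kidney, 20 in heart, 19 in lung and 0 in cerebellum. Its read numbers were at most a small part of those of IGFBP7, and it too was lowest in cerebellum. The nearest genes with an identifier outside the span, ENSMMUG00000036574 and ENSMMUG00000036824, had 0 reads in every tissue.

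Of 2 genes further along the chromosome, which were named after their values were seen, NOA1 did not follow IGFBP7 and REST was near to it. Beyond REST, the genes HOPX, ENSMMUG00000017785 and SRP72 each differed from IGFBP7 more than REST did. NOA1, a GTPase of mitochondria, had 9.50 RPKM in spleen, 9.0 in cerebellum and 8.98 in kidney, against 6.07 in lung and 3.42 in heart. REST, a repressor of neuronal genes in cells other than neurons, had 8.0 RPKM in kidney, 8.16 in spleen, 5.71 in lung, 2.73 in heart and 0.73 in cerebellum. REST starts 90675 bp after the end of IGFBP7, and their spans do not overlap. The root mean square difference between the centred log2(RPKM + 1) profiles was 0.36 for REST, 1.28 for NOA1 and 1.29 for POLR2B, against a median of 1.33 for the genes at 10 RPKM or more in some tissue. It was 2.42 for HOPX, 1.60 for ENSMMUG00000017785 and 1.08 for SRP72. REST, NOA1 and ENSMMUG00000017785 did not reach 10 RPKM, so they are outside the set that gave the median.

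The same measure was used to find the genes whose tissue pattern is most like that of IGFBP7. It was computed over the 5 tissues for 7921 other genes that reached 10 RPKM somewhere, and 62 of them were within 0.5. The closest, ENSMMUG00000013825 at 0.18 and ENSMMUG00000014266 at 0.20, have no symbol in the table used. The 6 closest with a symbol were RILPL2 at 0.27, HYAL1 at 0.27, H2AJ at 0.29, CTSZ at 0.29, CLIC1 at 0.30 and TMEM179B at 0.30.

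HYAL1, a lysosomal hyaluronidase, had 56.0 RPKM in kidney, 31.3 in spleen, 20.0 in lung, 12.1 in heart and 2.11 in cerebellum, in the same order as IGFBP7 on the deposited scale. H2AJ, a variant of histone H2A whose reads may be shared with other histone genes, also had this order, from 3.71 RPKM in cerebellum to 73.7 in kidney. TMEM179B, a membrane protein, had it as well, from 7.52 RPKM in cerebellum to 60.0 in kidney. In CTSZ, a lysosomal cysteine protease, spleen came first with 18.9 RPKM and cerebellum last with 0.36. CLIC1, an intracellular chloride channel protein, and RILPL2, which binds Rab proteins, likewise had their highest level in spleen, at 40.6 and 16.5 RPKM. Among the genes at 10 RPKM or more, 134 others (1.70% with IGFBP7 included) had the 5 tissues in the same order as IGFBP7. With Pearson's r over the 5 tissues in place of the difference, none of the 6 genes remained among the first 6, so the names rest on the measure.

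**Figure D3:**
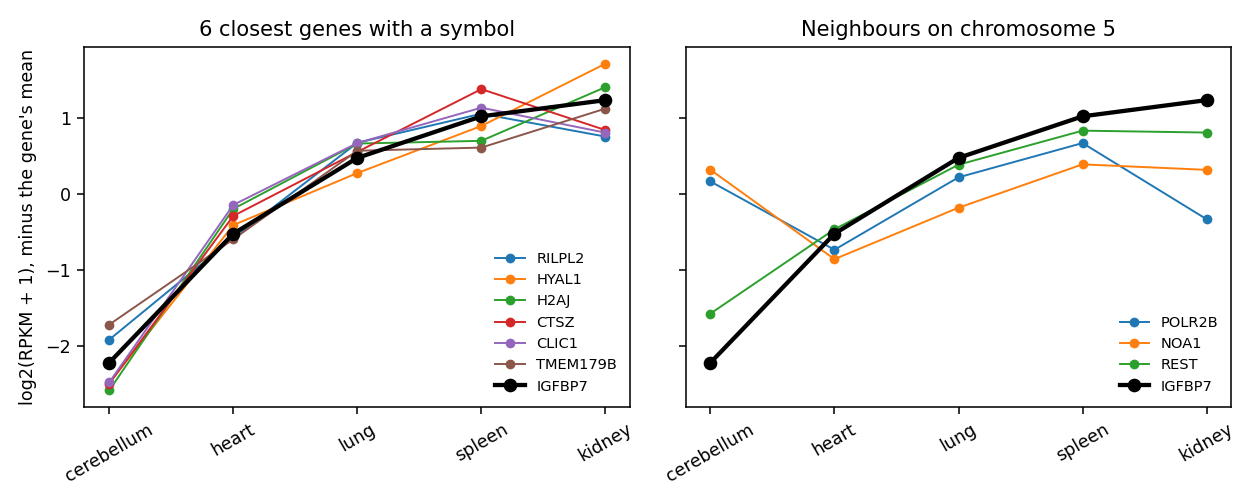
Centred log2(RPKM + 1) by tissue, the level in a tissue minus the gene's own mean over the 5 tissues, for IGFBP7 (black) beside the 6 closest genes with a symbol (left) and beside POLR2B, NOA1 and REST of the same chromosomal neighbourhood (right). All 6 close genes and REST are lowest in cerebellum, whereas POLR2B and NOA1 are lowest in heart.

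The classical IGF binding proteins, which carry insulin-like growth factors in tissue and blood, could be matched for IGFBP3 and IGFBP4. IGFBP1, IGFBP2, IGFBP5 and IGFBP6 were not matched, and no value is given for them. A gene was counted as higher or lower than in cerebellum at a ratio of 2, with reads under 3 set to 3. By this rule, 32.0% of the 15688 detected genes were higher and 20.9% lower in kidney. The shares were 39.3% and 19.2% in spleen, 39.3% and 16.6% in lung, and 15.4% and 45.3% in heart. Both IGFBP3 and IGFBP4 were higher in all 4 tissues, also after upper quartile scaling, as was IGFBP7.

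IGFBP3, the main carrier of IGFs in serum, had 54.1 RPKM in kidney, 176 in spleen, 27.2 in lung, 21.1 in heart and 0.87 in cerebellum. IGFBP4, which inhibits IGF action, had 311 RPKM in kidney, 164 in spleen, 102 in lung, 45.8 in heart and 3.34 in cerebellum. Thus IGFBP4 shared the tissue order of IGFBP7, whereas IGFBP3 was highest in spleen. IGFBP4 was the most abundant of the 3 in every tissue but spleen, where IGFBP3 was. In kidney its RPKM was 12.7 times that of IGFBP7, and in cerebellum 2.52 times. With the POLR2B reads taken off, this ratio was 15.8 in kidney and had no value in cerebellum. IGFBP7 was above IGFBP3 only in cerebellum, at 1.53 times its RPKM, and there the direction turned with the POLR2B reads taken off, which left 0 reads of IGFBP7.

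Of the proteins that share a domain with IGFBP7, ESM1 had a tissue pattern near to that of IGFBP7, with a root mean square difference of 0.43. It did not reach 10 RPKM and so was not among the genes ranked by this measure. Of 4 matched, all 4 were higher than cerebellum in lung and in spleen and 3 in kidney and in heart, and 1 was lower in heart. After upper quartile scaling 2 were higher in kidney and 0 lower in heart. On the deposited scale, 39.3% of all detected genes were higher in lung, 39.3% in spleen, 32.0% in kidney and 15.4% in heart. In heart 45.3% were lower. KAZALD1, which combines the same kinds of domain as IGFBP7, had 26.2 RPKM in spleen and between 0.25 and 1.09 in the other tissues. ESM1, an endothelial proteoglycan, had 6.66 RPKM in lung, 5.82 in kidney, 4.88 in spleen, 0.81 in heart and 0 reads in cerebellum. The serine proteases HTRA3 and HTRA4 stayed low, with at most 5.24 RPKM in heart and 1.13 RPKM in lung, respectively.

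The matched ligands and receptors of the IGF system differed in their highest tissue, which was spleen, lung or kidney. Of 5 matched, 4 were higher than cerebellum and 0 lower in kidney and in lung. In spleen 2 were higher and 2 lower, and in heart 1 was higher and 1 lower. After upper quartile scaling 3 were higher in lung and 3 in heart. Of all detected genes on the deposited scale, 32.0% were higher and 20.9% lower in kidney, and 39.3% and 16.6% in lung. The shares were 39.3% and 19.2% in spleen, and 15.4% and 45.3% in heart. IGF1, the growth factor itself, had 15.9 RPKM in spleen, 2.49 in heart, 1.85 in lung, 0.85 in cerebellum and 0.70 in kidney. Its counting intervals in kidney (0.61 to 0.79) and cerebellum (0.77 to 0.92) overlapped, so which of these tissues was lowest is not settled. IGF1R, the receptor of IGF1, had 19.6 RPKM in lung, 9.65 in kidney, 5.90 in spleen, 3.51 in cerebellum and 3.10 in heart. IGFBP7 exceeded IGF1R in kidney, spleen and heart, by 2.54, 3.56 and 2.11 times in RPKM, and was below it in lung and cerebellum. With the POLR2B reads taken off, IGFBP7 was 2.04 times IGF1R in kidney, 1.80 times in spleen and 0.991 times in heart. The direction in heart thus turned only just, to nearly equal levels. IGF2R, which clears IGF2, ranged from 2.12 RPKM in cerebellum to 18.6 in lung. INSR, the insulin receptor, had 30.6 RPKM in kidney and 3.90 in spleen, and IGFALS, a subunit of the IGF complex in serum, had 13.5 in kidney and 0.060 in heart.

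A list of partners of IGFBP7, a protease and basement membrane genes was nearly all higher outside cerebellum. Of 7 matched, all 7 were higher in lung and in heart and 6 in kidney and in spleen, and the counts were the same after upper quartile scaling. The shares of all detected genes on the deposited scale were 39.3% in lung, 15.4% in heart, 32.0% in kidney and 39.3% in spleen. CD93, an endothelial receptor that binds IGFBP7, had 1.99 RPKM in kidney, 7.60 in spleen, 19.4 in lung, 2.40 in heart and 0.11 in cerebellum. IGFBP7 was 12.3 times CD93 in kidney and 0.726 times in lung, or 9.90 and 0.343 times with the POLR2B reads taken off. COL4A1, a chain of the type IV collagen of basement membranes, had 15.0 RPKM in kidney, 28.8 in spleen, 39.2 in lung, 12.3 in heart and 2.52 in cerebellum. COL4A2, its partner chain, was also highest in lung, at 101 RPKM. So were the basement membrane proteins NID1, HSPG2 and LAMA4, at 39.3, 23.1 and 17.9 RPKM. ST14 (matriptase), the protease that cleaves IGFBP7, had 9.88 RPKM in kidney, 5.56 in spleen, 11.9 in lung, 1.34 in heart and 0.19 in cerebellum.

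**Figure D4:**
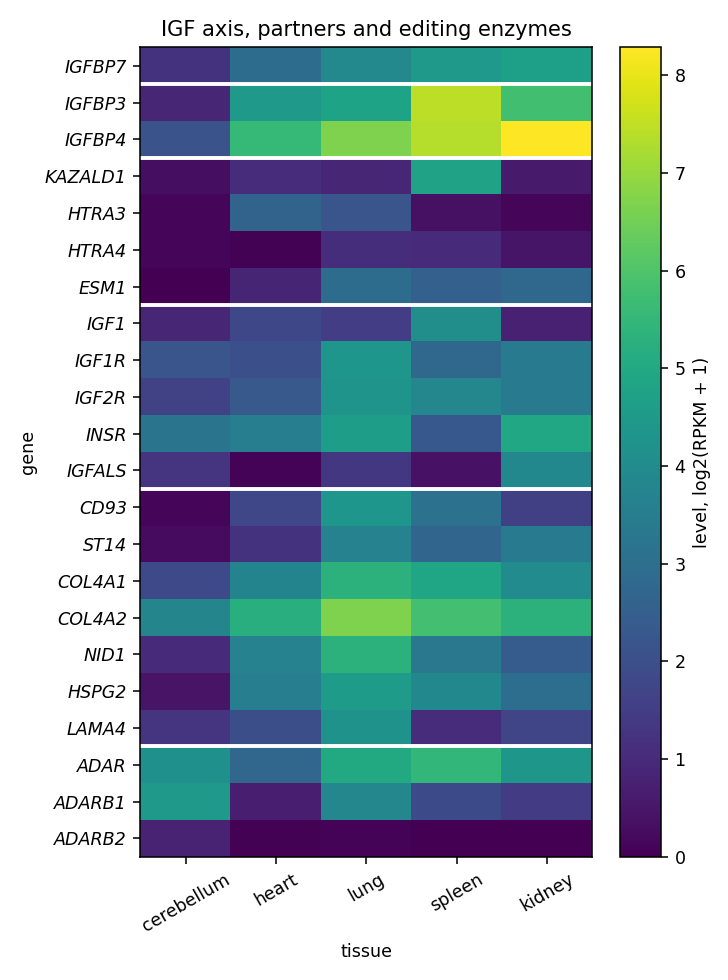
Level as log2(RPKM + 1), by colour, of IGFBP7 and of the matched genes of 5 lists (rows, from top: classical IGF binding proteins, related proteins, IGF ligands and receptors, partners and proteases with basement membrane genes, editing enzymes) in the 5 tissues (columns). The basement membrane genes from COL4A1 to LAMA4 are brightest in lung, whereas IGFBP7 and IGFBP4 are brightest in kidney.

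The editing enzymes did not share the pattern of IGFBP7. Of the 2 detected, ADAR and ADARB1, only ADAR was counted as higher than cerebellum, and only in spleen, which was no longer so after upper quartile scaling. ADARB1 was lower in kidney, heart and spleen, after upper quartile scaling also in lung, and ADAR was lower in heart but not after that scaling. On the deposited scale, 20.9% of all detected genes were lower in kidney, 45.3% in heart, 19.2% in spleen and 16.6% in lung. In spleen 39.3% were higher. ADARB1, the editing enzyme ADAR2, had 21.4 RPKM in cerebellum, 13.2 in lung, 2.66 in spleen, 1.71 in kidney and 0.61 in heart. ADAR, the editing enzyme ADAR1, had 19.8 RPKM in kidney, 43.9 in spleen, 31.8 in lung, 5.69 in heart and 16.9 in cerebellum. In cerebellum the RPKM of ADAR was 12.8 times and that of ADARB1 16.1 times that of IGFBP7. In kidney the same ratios were 0.808 and 0.070, and in spleen 2.09 and 0.127. These ratios are taken within a library and do not depend on the scaling between libraries, but they depend on the reads of the overlapping gene. With the POLR2B reads taken off, the ADAR ratio was 1.01 in kidney, where it turned only just, and 4.15 in spleen. The ADARB1 ratio was then 0.087 in kidney and 0.252 in spleen, and neither ratio had a value in cerebellum. ADARB2, a brain protein of the same family without known editing activity, had 0.75 RPKM in cerebellum and at most 21 reads elsewhere.

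The summed markers of vessel and connective tissue cells were lowest in cerebellum as well. The endothelial markers were matched for 9 of 10, and all 9 of these were higher than cerebellum in lung, heart and spleen and 8 in kidney. Among all detected genes, 39.3% were higher in lung, 15.4% in heart, 39.3% in spleen and 32.0% in kidney. The endothelial markers summed to 592 RPKM in lung, 213 in spleen, 80.9 in heart, 78.2 in kidney and 14.1 in cerebellum, and none of them was at 0 reads in any tissue. PECAM1, which joins endothelial cells to each other, had 20.2 RPKM in kidney, 53.0 in spleen, 161 in lung, 14.4 in heart and 1.92 in cerebellum. Among the markers of the 3 cell types, 2 were not lowest in cerebellum. VWF, the von Willebrand factor of endothelial cells, had 0.69 RPKM in cerebellum and 0.51 in kidney, and PDGFRA, a growth factor receptor of fibroblasts, had 3.59 RPKM in cerebellum and 2.07 in heart.

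The 7 mural and smooth muscle markers summed to 568 RPKM in lung, 193 in spleen, 192 in heart, 173 in kidney and 38.4 in cerebellum. The 6 matched fibroblast markers summed to 400.1 RPKM in lung, 331 in spleen, 183 in heart, 67.3 in kidney and 16.4 in cerebellum. Of the mural markers, all 7 were higher than cerebellum in lung, 6 in kidney and in spleen, and 5 in heart, where upper quartile scaling gave 7. All 6 fibroblast markers were higher in lung and in spleen, and 5 in kidney and in heart. For all detected genes the shares were 39.3% in lung, 39.3% in spleen, 32.0% in kidney and 15.4% in heart. None of the mural or fibroblast markers was at 0 reads in any tissue. All 3 sums were thus lowest in cerebellum, as IGFBP7 was, and highest in lung, where IGFBP7 was not. For the fibroblast markers this rested on DCN (decorin), with 275 RPKM in lung and 181 in spleen. Without DCN the sum was 126 RPKM in lung and 149.8 in spleen. Expressed as a percentage of the summed endothelial markers, the RPKM of IGFBP7 was 31.3% in kidney, 9.9% in spleen, 9.4% in cerebellum, 8.1% in heart and 2.4% in lung. Kidney had the highest and lung the lowest percentage also for the mural markers, at 14.2% and 2.5%, and for the fibroblast markers, at 36.4% and 3.5%. Without DCN, kidney still had the highest percentage of the fibroblast sum, 52.2%, but heart had the lowest, 9.91%, beside 11.2% in lung. These percentages use the deposited levels. With the POLR2B reads taken off, IGFBP7 was at 0 in cerebellum, which would then have the lowest percentage of every sum. The part of these cell types in the level of IGFBP7 was not tested.

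**Figure D5:**
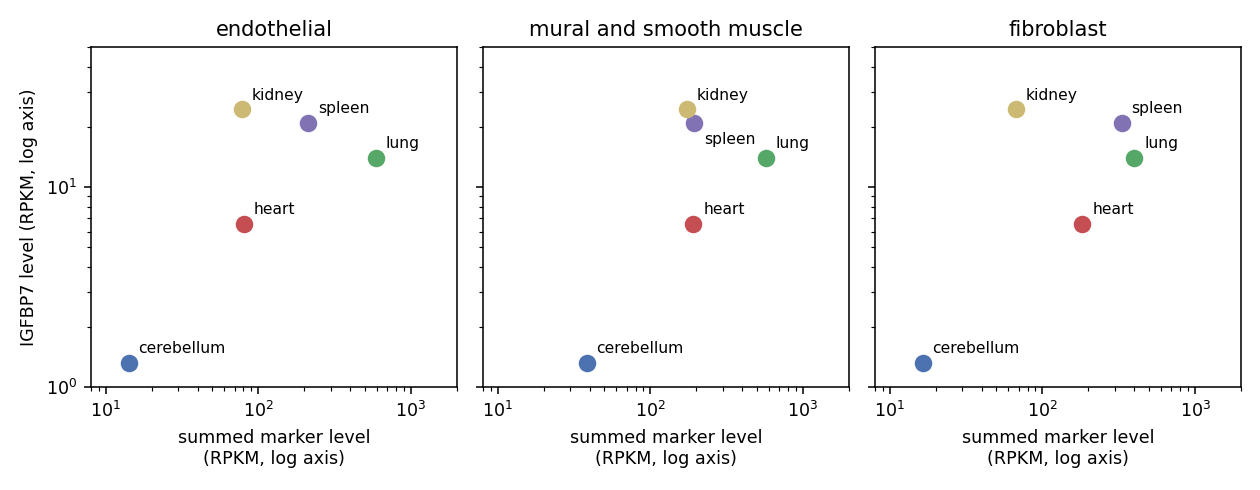
Level of IGFBP7 in RPKM (vertical log axis) against the summed RPKM of endothelial, mural and smooth muscle, and fibroblast markers (horizontal log axis), with 1 point per tissue and library. Cerebellum is lowest on both axes in each panel, kidney is highest for IGFBP7 at the next lowest marker sum, and lung has the highest marker sum, for fibroblasts through DCN.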

How the data were processed

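RNA was selected for poly(A) and made into strand-specific libraries (dUTP method), 1 per tissue. Per the study's methods, reads of cerebellum, kidney, lung and heart were aligned with BWA to rheMac2 and to Ensembl transcripts, and TopHat 1.2.0 is named in the submitters' processing notes. The tool that counted reads per transcript is not given in the sources used here. The read counts were deposited by the authors without normalization. The authors also gave RPKM, scaled to the exon length and the properly mapped reads, and recomputing them from the counts gave the same values in every row (largest difference 4.77e-12).

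Files were joined by transcript identifier. Starts, which spleen gives 1 bp higher than the other files, were written 1-based. Exon lengths of 7 transcripts, not IGFBP7, differ between files. A gene was represented by its transcript with the highest summed RPKM. Symbols were paired by gene identifier for 15556 of 28633 genes, and 75 of 92 genes on 13 lists were matched.

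Poisson and Clopper-Pearson intervals (95%) came from scipy 1.17.1, and the floor was 3 reads. No test was made, with 1 library per tissue. Likeness was the root mean square difference of centred log2(RPKM + 1) profiles. Named were IGFBP7, list members, the 6 closest genes with a symbol and chromosomal neighbours. TMM factors came from edgeR 4.0.16 in R 4.3.3, and scripts ran in Python 3.11.15. Interval, fold and likeness steps were tested on simulated data. The gene and the lists were chosen with earlier results of these data known. The setting without POLR2B reads and the fibroblast sum without DCN were added after the data had been seen. No sequence is printed, as none was used here.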

Additional observations from a re-analysis of the deposited data

How the results depend on the processing

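Of 114 alternative values, 95 moved from the reported value (beyond its counting interval where it has one, or by more than 1.5 times for counts), and 6 reversed in direction, all of them ratios of IGFBP7 to another gene with the POLR2B reads taken off. The ratio of lung to heart, whose direction also turned with the scaling, was not among these values. The level of IGFBP7 was 23.0 RPKM in kidney, 16.1 in spleen, 12.0 in lung, 12.4 in heart and 1.43 in cerebellum after upper quartile scaling. In the same order of tissues it was 23.0, 16.3, 11.3, 13.8 and 1.48 RPKM with TMM, 24.3, 15.7, 10.8, 15.1 and 1.52 RPKM with median-of-ratios scaling, 30.6, 24.3, 15.4, 13.7 and 1.86 RPKM with scaling to the reads on transcripts, and 36.3, 27.5, 17.7, 18.4 and 2.12 RPKM with the same without the 100 highest transcripts. Scaling to the reads on transcripts, with or without the 100 highest, divides by fewer reads and was not rescaled as the other scalings were. These levels are therefore higher in every tissue by construction, and they are among the values counted as moved. Ratios between tissues are not affected by this. The ratio to cerebellum was 16.1 in kidney, 11.3 in spleen, 8.36 in lung and 8.68 in heart after upper quartile scaling. In this order it was 15.5, 11.0, 7.61 and 9.34 with TMM, 15.99, 10.3, 7.09 and 9.89 with median-of-ratios scaling, 16.4, 13.1, 8.24 and 7.33 with scaling to the reads on transcripts, and 17.1, 12.9, 8.31 and 8.67 with the same without the 100 highest transcripts. On the log2(RPKM + 1) scale, which shrinks low levels, the ratio was 11.0, 9.45, 6.47 and 3.24. With all POLR2B reads taken off, an alternative chosen after seeing the data, the level was 19.7 RPKM in kidney, 10.6 in spleen, 6.65 in lung, 3.07 in heart and 0 in cerebellum, and the ratio to the deposited cerebellum level was 14.8, 7.98, 5.01 and 2.31. The ratio of IGFBP7 to another gene that then turned was 0.991 for IGF1R in heart, 0.994 for ADAR in kidney, 0.539 for ADAR in heart, 0.505 for ADARB1 in lung, and 0 for IGFBP3 and for CD93 in cerebellum. Of these, 0.991 and 0.994 are nearly equal to 1, so their turn is slight. Without a filter on low genes the percentile of IGFBP7 was 94.0 in kidney, 92.3 in spleen, 88.4 in lung, 89.0 in heart and 62.6 in cerebellum, and among genes that reached 10 RPKM it was 78.5, 72.1, 58.0, 62.0 and 18.4. These percentiles differ by construction, since other genes were ranked. Of the 6 closest genes, 0 were shared when Pearson's r was used, 4 with a pseudocount of 0.1 and 6 when genes at 1 RPKM were let in. Counted over the 42 detected genes of 8 lists, the number higher than in cerebellum at a ratio of 2 or of 4, or after upper quartile scaling, stayed within 1.5 times. IGFBP7 had 1 transcript, so no other choice of transcript existed.

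No paired analysis was possible because each tissue had 1 library, and no library was left out within a tissue. In cerebellum the depth was enough to place IGFBP7 well above the floor of 3 reads, but the 558 reads there were fewer than those counted on the overlapping POLR2B, so their origin, not their number, limits that value. Heart stood apart from the other libraries in its low sum of reads on transcripts relative to properly mapped reads, and its place beside lung changed with the scaling. The cause was not tested.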
